A study of Rattus norvegicus with 6 samples.

Results

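The 10 genes followed here belong to the vascular endothelium and were measured in rat kidney, namely Pecam1, Cdh5, Kdr, Flt1, Tek, Tie1, Ehd3, Emcn, Plvap and Eng. They were chosen by symbol, and their transcript counts were summed per gene in each rat. The series holds kidney RNA from 6 male Sprague Dawley rats, whose age is not given in the sources used here, and it lists 17051 genes, of which these are 10. The 3 rats of the AL group (rats 61, 71 and 88) ate normal laboratory chow freely. The 3 rats of the HD group (rats 64, 67 and 69) ate the hyperammonemic diet, which is chow mixed with amino acids in the proportions of hemoglobin, at 3 g per kg per day for 7 days. The animals carried no transgene, each library came from 1 rat, and the sources do not say which zone of the kidney went into the sequenced RNA. The comparison of the diets asks here whether vascular and glomerular transcripts make up a different share of the RNA.

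The blood vessels of the kidney are lined by endothelium of several kinds. Glomerular capillaries have open fenestrae through which plasma is filtered, peritubular capillaries and the ascending vasa recta have fenestrae closed by thin diaphragms, and arterioles and the descending vasa recta have a continuous lining. Endothelial cells are held together by adhesion proteins and are kept alive by vascular endothelial growth factor (VEGF), which podocytes and tubule cells release, and by angiopoietins acting on the Tie receptors.

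Total estimated counts ranged from 12499945 to 30466461 per library, a ratio of 2.44, with the deepest library from rat 69 of the HD group. Between 13096 and 13827 genes had a count above 0, and for the 15 pairs of libraries the chi-square divided by its degrees of freedom, which sampling noise alone would leave near 1, was 23.7 to 80.4. Markers of kidney were present in every rat: the summed level of 11 listed proximal tubule genes was 8691 to 10011 TPM (transcript abundance scaled to transcript length and library size) in the AL group and 11244 to 14205 in the HD group, and that of 7 genes of the thick ascending limb was 3940 to 4544 and 2730 to 4443. The proximal tubule sums did not overlap between the groups. All 10 endothelial genes had at least 30 counts in at least 1 rat and entered the test, which covered 11553 genes. Levels between rats are given below as CPM (counts scaled to library size) after TMM normalization, which also adjusts for composition, and levels between genes as TPM.

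On the TPM scale, averaged over the 6 rats, the endothelial genes spanned from Plvap, at 75.4 ± 70.2 TPM (SD, n = 6), to Flt1, at 3.30 ± 1.58. Emcn followed Plvap at 58.1 ± 32.5 TPM, then Pecam1 at 38.5 ± 21.7, Eng at 37.6 ± 20.0, Tie1 at 20.0 ± 8.88 and Ehd3 at 19.8 ± 10.6. Tek was at 12.5 ± 7.53 TPM, Cdh5 at 7.34 ± 3.32 and Kdr at 7.22 ± 4.19. Neighbours in this order changed places between rats in 4 instances. Plvap was above Emcn in 3 of 3 AL rats and in 0 of 3 HD rats. Pecam1 was above Eng in 3 of 6 rats, Tie1 above Ehd3 in 3 of 6 and Cdh5 above Kdr in 4 of 6, whereas the other 5 steps of the order were seen in 6 of 6 rats.

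The endothelial genes moved together among the rats, and much of that movement lay within the diet groups. Each gene's level in a rat was expressed as its log2 difference from that gene's mean over the rats, and the median over the 10 genes was -0.51, 0.64 and 0.65 for AL rats 61, 71 and 88. For HD rats 64, 67 and 69 it was -0.93, -0.42 and 0.52. Rats 71, 88 and 69 were thus the high rats and rats 61, 64 and 67 the low ones, and each group held both kinds. For 10 of 10 endothelial genes the 3 highest levels were those of rats 71, 88 and 69, a pattern found in 13.8% of all tested genes. This split was noticed in the values and was given no test, and it crosses the diets. In this whole-tissue RNA, fewer endothelial cells and less RNA per endothelial cell cannot be told apart.

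**Figure D1:**
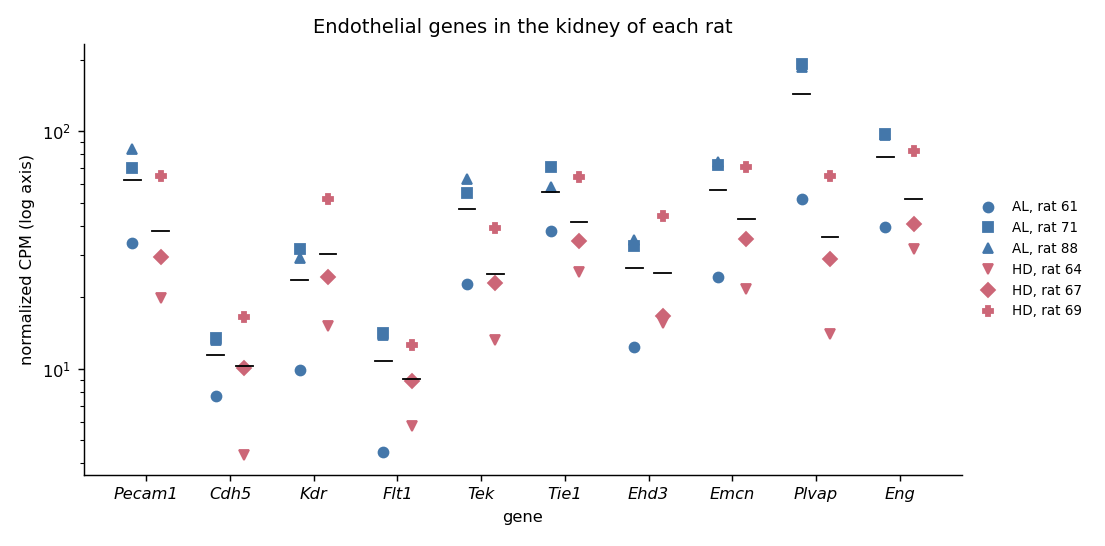
Level of each endothelial gene in the kidney of each rat, in TMM-normalized CPM on a log axis; blue symbols are the AL rats, red symbols the HD rats, and black bars the group means (n = 3). Rats 71, 88 and 69 lie on top for each of the 10 genes, and no gene has groups that do not overlap.

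No endothelial gene passed the threshold in the comparison of the diets. edgeR's quasi-likelihood test gave 0 of 10 genes at an adjusted *P* of at most 0.05 (0.0% of all tested genes) and 1 of 10, Plvap, at an unadjusted *P* below 0.05 (10.6% of all tested genes in either direction, 5.94% lower and 4.66% higher in HD). DESeq2 gave 0 of 10 at the adjusted threshold (1.58% of all genes) and 2 of 10, Plvap and Tek, at the unadjusted one, both with lower levels (11.5% of all genes in either direction, 6.77% lower in HD). Mean levels were lower in the HD group for 9 of 10 genes, where 48.7% of all tested genes had a negative log2 fold change. The median log2 fold change was -0.42 over the 10 genes and 0.01 over all tested genes. In 0 of 10 genes did the CPM of the groups lie apart, against 14.3% of all tested genes (7.01% lower and 7.25% higher in HD). The ratio of the highest to the lowest rat within a group ran from 1.76 for Cdh5 to 3.72 for Plvap in AL and from 2.18 for Flt1 to 4.62 for Plvap in HD.

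**Figure D2:**
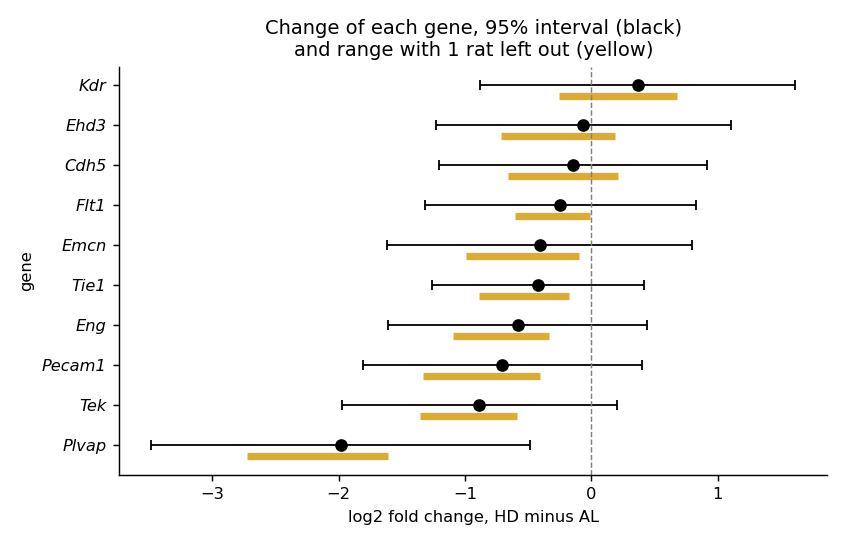
Log2 fold change of each endothelial gene, HD minus AL, from edgeR. Points are estimates from 3 rats per group, black bars their 95% intervals and yellow bars the range when each rat is left out in turn; the interval of Plvap, from -3.48 to -0.49, is the only one of the 10 that does not hold 0.

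Pecam1 and Cdh5 hold endothelial cells to each other. Pecam1, the adhesion molecule CD31 of endothelium and of other cells such as platelets, is listed on chromosome 10 of rn5 from 94598951 to 94660385 (minus strand, 9 exons). Its level was 33.8, 69.8 and 83.7 CPM in AL rats 61, 71 and 88, and 19.9, 29.4 and 64.7 CPM in HD rats 64, 67 and 69. Rat 69 stood nearly as high as rats 71 and 88, and rat 61 lay among the HD rats. The log2 fold change was -0.70 ± 0.47 (SE), with an adjusted *P* of 0.655. Cdh5 encodes VE-cadherin, the cadherin of endothelial junctions (chromosome 19, 1022710 to 1072784, minus strand, 11 exons). It was measured at 7.70, 13.5 and 13.2 CPM in AL and at 4.33, 10.0 and 16.5 CPM in HD, so that the HD group held both the lowest and the highest rat. Its log2 fold change was -0.14 ± 0.45 (SE; adjusted *P* = 0.955), and it became 0.21 without rat 64.

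Kdr and Flt1 encode the main VEGF receptors of blood vessels. Kdr (VEGFR2, the signalling receptor for VEGF-A; chromosome 14, 34557361 to 34618111, plus strand, 30 exons) stood at 9.85, 32.0 and 29.2 CPM in AL and at 15.2, 24.3 and 51.7 CPM in HD. It was the one gene of the 10 with a higher mean in HD, 30.4 ± 19.0 CPM against 23.7 ± 12.1 (SD, n = 3). Rat 69 carried that direction: the log2 fold change of 0.37 ± 0.53 (SE; adjusted *P* = 0.870) became -0.26 without it. Flt1 (VEGFR1, which binds VEGF-A tightly and exists also as a soluble decoy; chromosome 12, 11155072 to 11322925, plus strand, 30 exons) was lower than Kdr in every rat. It had 4.45, 14.1 and 13.8 CPM in AL and 5.77, 8.84 and 12.6 CPM in HD, with the HD rats inside the AL range. Its log2 fold change was -0.25 ± 0.46 (SE), with an adjusted *P* of 0.904.

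Tek and Tie1 form the receptor side of the angiopoietin system. Tek (Tie2, the receptor of the angiopoietins; chromosome 5, 117672484 to 117799345, plus strand, 23 exons) was at 22.7, 54.8 and 63.1 CPM in AL and at 13.2, 23.0 and 39.2 CPM in HD. Rat 61 fell within the range of the HD rats, and the other AL rats lay above all of them. The log2 fold change was -0.89 ± 0.46 (SE), with a 95% interval from -1.97 to 0.20. The adjusted *P* was 0.554 with edgeR and 0.39 with DESeq2, whose unadjusted *P* was 0.039. Tie1, the related receptor that binds no angiopoietin tightly and modulates Tek (chromosome 5, 141084010 to 141111588, minus strand, 23 exons), had 38.0, 70.9 and 58.2 CPM in AL and 25.5, 34.4 and 64.2 CPM in HD. Here rat 69 was above rat 88, and the log2 fold change was -0.42 ± 0.36 (SE; adjusted *P* = 0.743).

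Eng encodes endoglin, a co-receptor through which endothelial cells respond to BMP9 and TGF-beta (chromosome 3, 17021673 to 17058548, plus strand, 14 exons). Its levels were 39.5, 97.7 and 96.4 CPM in AL and 32.0, 40.5 and 82.6 CPM in HD. Rats 71 and 88 were above every HD rat, while rat 61 was below rats 67 and 69. The log2 fold change was -0.58 ± 0.44 (SE), with an adjusted *P* of 0.704.

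Ehd3, Emcn and Plvap differ in the vascular beds of the kidney that carry them, and Emcn is shared by several beds. Ehd3, an endocytic recycling protein that in kidney is a marker of glomerular endothelium (chromosome 6, 34923815 to 34948298, plus strand, 6 exons), was at 12.4, 32.8 and 34.7 CPM in AL and at 15.5, 16.7 and 43.8 CPM in HD. The lowest rat was in AL and the highest in HD, and the group means were 26.6 ± 12.4 and 25.4 ± 16.0 CPM (SD, n = 3). Its log2 fold change was -0.06 ± 0.50 (SE; adjusted *P* = 0.982), and its sign turned when rat 71, 88, 64 or 67 was left out. Emcn encodes endomucin, a sialomucin on capillary and venous endothelium including the glomerulus (chromosome 2, 261184360 to 261264295, plus strand, 12 exons). It had 24.2, 71.8 and 74.2 CPM in AL and 21.7, 35.1 and 70.8 CPM in HD, so that rat 69 reached the level of rats 71 and 88. The log2 fold change was -0.41 ± 0.52 (SE), with an adjusted *P* of 0.844.

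Plvap had the widest gap of the 10. It encodes the protein that forms the diaphragms of fenestrae and caveolae, which peritubular capillaries and ascending vasa recta have and mature glomerular capillaries largely lack (chromosome 16, 19767918 to 19780232, minus strand, 6 exons). Its levels were 51.8, 192 and 186 CPM in AL rats 61, 71 and 88, and 14.0, 28.9 and 64.7 CPM in HD rats 64, 67 and 69. Rat 69 was above rat 61, so the groups overlapped by that pair of rats. The means were 143 ± 79.3 CPM in AL and 35.9 ± 26.1 in HD (SD, n = 3), and the log2 fold change was -1.98 ± 0.64 (SE). edgeR gave an unadjusted *P* of 0.016 and an adjusted *P* of 0.406, and DESeq2 gave 0.012 and 0.219. Leaving out any single rat kept the estimate negative, between -2.73 and -1.61, and without rat 67 the unadjusted *P* was 0.054.

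The make-up of the endothelial RNA was then compared within each rat, which cancels only what the genes share equally in that rat. The log2 difference from a gene's mean was 1.66 in rat 71 and -2.08 in rat 64 for Plvap, and 0.65 and -1.13 for Pecam1. Part of the split into high and low rats can therefore remain in a share or ratio. Rat 61, a low rat, was the lowest AL rat on the share below and on the ratios to Pecam1 of Plvap, Kdr, Ehd3 and Emcn. Plvap supplied 26.4%, 35.4% and 33.8% of the summed TPM of the 10 genes in AL rats 61, 71 and 88, and 10.8%, 14.7% and 15.9% in HD rats 64, 67 and 69. The groups did not overlap on this share, although that sum itself overlapped between the groups, at 146, 486 and 459 TPM in AL and 99.0, 148 and 340 TPM in HD. How often such shares of other genes lie apart was not computed.

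The count of each gene was divided by that of Pecam1 in the same rat, a pan-endothelial reference. Cells other than endothelium, platelets among them, also carry Pecam1, so a ratio can move with either of its counts. Leukocyte genes, given below, had a lower mean in HD in 9 of 9 tested cases (48.7% of all tested genes). The part of other cells, leukocytes included, in the count of Pecam1 was not tested. Plvap had 1.54, 2.76 and 2.22 counts per count of Pecam1 in AL rats and 0.703, 0.982 and 1.00 in HD rats, a log2 difference of -1.25, with every HD rat below every AL rat. Kdr had 0.292, 0.459 and 0.349 in AL and 0.762, 0.827 and 0.798 in HD, a log2 difference of 1.14, with every HD rat above every AL rat. Ehd3 was also apart, at 0.368, 0.470 and 0.415 in AL and 0.781, 0.570 and 0.677 in HD, a log2 difference of 0.69. Emcn was apart by a narrower margin, at 0.718, 1.03 and 0.887 in AL and 1.09, 1.19 and 1.09 in HD, a log2 difference of 0.37. For each of these 4 ratios the exact permutation test over 20 assignments of the rats gave a two-sided *P* of 0.1, the smallest that 3 against 3 rats allow, and an adjusted *P* of 0.220 over 11 ratios.

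The other ratios to Pecam1 overlapped between the diets. Their log2 differences were 0.48 for Cdh5 and 0.65 for Flt1, each with an exact permutation *P* of 0.2. They were 0.30 for Tie1 and 0.19 for Eng, each with an exact permutation *P* of 0.3, and -0.11 for Tek, with an exact permutation *P* of 0.4. In all, 4 of 9 ratios to Pecam1 were apart, against 5.94% of the 11552 other tested genes. The 3 that were higher in HD compare with 4.72% of those genes, and the 1 that was lower with 1.22%. These ratios share Pecam1 and so are not independent of each other. Before division 14.3% of all tested genes were apart in CPM, so the share over all genes was lower after division by Pecam1, which varied within the groups. The 9 genes moved with Pecam1 from rat to rat, unlike most of that background, so no excess is read from these shares. The ratios of Kdr and of the 5 genes that overlapped were added after the levels had been seen.

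Eng was taken as a second reference for the genes that had separated, also after the values were seen. The log2 difference was -1.45 for Plvap, 0.95 for Kdr and 0.49 for Ehd3, and the groups were apart for each. Eng and Pecam1 had similar log2 differences from their means, such as 0.73 and 0.65 in rat 71 and -0.86 and -1.13 in rat 64. Eng is therefore not an independent reference, and the share of all tested genes apart relative to Eng was not computed. Emcn overlapped on this scale, with a log2 difference of 0.18 and an exact permutation *P* of 0.3.

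Within the receptor families, Kdr was compared with Flt1 and Tek with Tie1. There were 2.22, 2.28 and 2.11 counts of Kdr per count of Flt1 in AL rats and 2.63, 2.75 and 4.11 in HD rats. The groups were apart, by 0.49 on the log2 scale. The exact permutation *P* was 0.1, the smallest possible here, and 0.220 when adjusted over 11 ratios. The share of all tested genes apart relative to Flt1 was not computed. Tek had 0.598, 0.773 and 1.08 counts per count of Tie1 in AL and 0.518, 0.670 and 0.611 in HD, which overlapped (log2 difference -0.41, exact permutation *P* = 0.3).

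**Figure D3:**
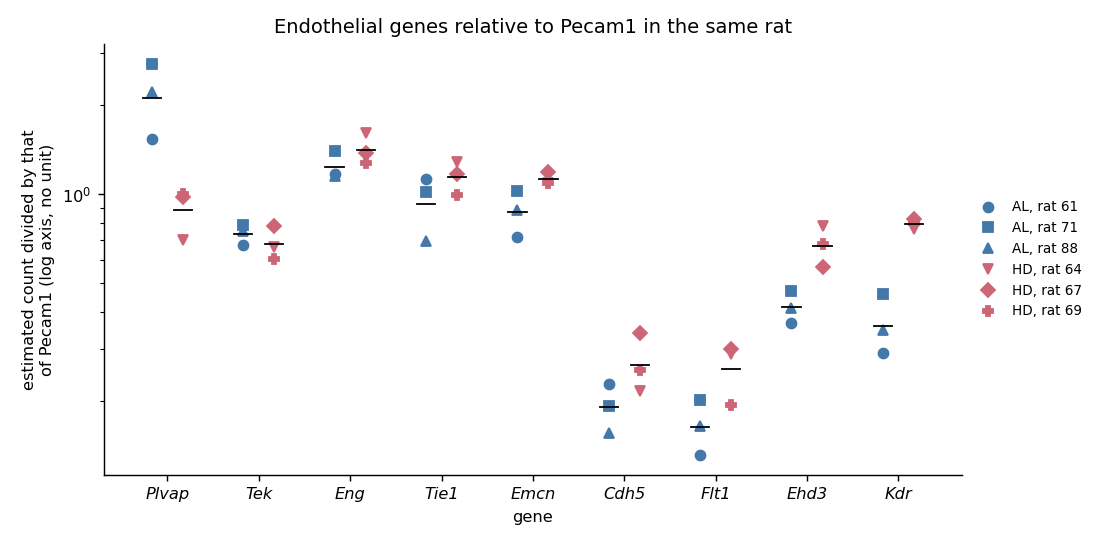
Count of each of the other 9 endothelial genes divided by that of Pecam1 in the same rat, on a log axis without unit; blue symbols are AL rats, red symbols HD rats, and black bars the group means on the log scale (n = 3). HD rats lie below all AL rats for Plvap and above them for Emcn, Ehd3 and Kdr, and the groups overlap for Tek, Eng, Tie1, Cdh5 and Flt1.

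The upstream sequences of the genes whose ratios separated are shown so that their promoters can be compared. RefSeq's table for the GRCr8 build held 7 of the 10 genes, all but Pecam1, Cdh5 and Tek, and the 250 bases before the start of Plvap, Kdr, Emcn and Flt1, the partner of Kdr, are given 5′ to 3′ on the gene's strand. Ehd3 is not printed because its strand in that table differs from its strand in the deposited rn5 table. Capitals mark GGAA or its reverse complement TTCC, the core that ETS transcription factors such as Erg and Fli1 of endothelium recognize.
Plvap, chr16:18231280-18231529, minus strand: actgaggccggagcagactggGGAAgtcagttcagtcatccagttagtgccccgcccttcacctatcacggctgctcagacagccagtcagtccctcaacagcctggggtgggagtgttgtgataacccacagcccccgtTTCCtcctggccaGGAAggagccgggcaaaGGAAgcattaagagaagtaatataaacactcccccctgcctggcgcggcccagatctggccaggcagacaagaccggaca
Kdr, chr14:32571813-32572062, plus strand: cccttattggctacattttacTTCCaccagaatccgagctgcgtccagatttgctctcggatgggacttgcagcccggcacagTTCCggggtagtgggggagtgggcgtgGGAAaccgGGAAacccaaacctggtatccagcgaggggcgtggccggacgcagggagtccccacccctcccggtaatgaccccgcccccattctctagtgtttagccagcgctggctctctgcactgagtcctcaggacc
Emcn, chr2:228564289-228564538, plus strand: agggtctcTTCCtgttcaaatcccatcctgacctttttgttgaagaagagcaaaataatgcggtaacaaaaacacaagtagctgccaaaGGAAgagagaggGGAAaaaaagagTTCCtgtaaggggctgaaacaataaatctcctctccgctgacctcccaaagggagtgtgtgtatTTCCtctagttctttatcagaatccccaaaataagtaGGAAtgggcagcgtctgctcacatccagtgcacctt
Flt1, chr12:12333180-12333429, plus strand: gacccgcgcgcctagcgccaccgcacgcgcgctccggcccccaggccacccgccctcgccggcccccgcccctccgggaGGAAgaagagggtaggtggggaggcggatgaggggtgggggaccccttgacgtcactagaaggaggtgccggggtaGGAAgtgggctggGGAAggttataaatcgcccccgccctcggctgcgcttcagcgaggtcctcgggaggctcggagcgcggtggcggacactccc

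Counting both strands, the upstream windows held 4 ETS cores for Plvap, 4 for Kdr, 6 for Emcn and 3 for Flt1, against a median of 3 over 33469 windows of the same length. At least 4 cores were found in 34.7% of all windows and at least 1 in 93.2%, so the core alone is common. GGGCGG, the box bound by Sp1, was found 1 time for Plvap, 1 time for Kdr, 3 times for Flt1 and 0 times for Emcn, and in 30.5% of all windows. TATAAA was found 1 time for Plvap, 1 time for Flt1 and 0 times for Kdr and Emcn, and in 12.9% of all windows. No base was shared between an ETS core and either of the other motifs.

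The ligands and further receptors of these pathways showed no gene at the adjusted threshold. Of 14 tested genes of the VEGF and angiopoietin system, 3 had a higher and 11 a lower mean in HD (48.7% of all tested genes were lower). The median log2 fold change was -0.57, with 1 gene at an unadjusted *P* below 0.05 (10.6% of all tested genes). That count was 0 without rat 88 or 67, 2 without rat 61 or 71 and 5 without rat 69. Vegfa, the chief ligand of Kdr and Flt1, was at 394, 301 and 298 CPM in AL and at 253, 297 and 359 CPM in HD. These levels overlapped, and the 95% interval of its log2 fold change of -0.13 ran from -0.54 to 0.28. Pgf, placental growth factor, which binds Flt1 and not Kdr, was the gene with the unadjusted *P* below 0.05. It had 0.874, 2.16 and 7.74 CPM in AL and 0.509, 0.450 and 0.927 CPM in HD, with rats 88 and 71 above the rest (log2 fold change -2.46 ± 0.80, SE; adjusted *P* = 0.406). Angpt1, the activating ligand of Tek, had 0.953, 2.11 and 2.25 CPM in AL and 1.44, 1.25 and 0.799 CPM in HD. Angpt2, the ligand that opposes it in many settings and is made by endothelium, had 8.34, 19.2 and 19.5 CPM in AL and 2.38, 3.40 and 21.6 CPM in HD. The highest level of Angpt2 was thus in rat 69 and the lowest in rats 64 and 67 of the same group.

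Among the signalling partners of endoglin, 7 of 14 tested genes had a higher and 7 a lower mean in HD, and the median log2 fold change was 0.03. Gdf2, which encodes BMP9, had a count of 0 in every library. Id3, a target of BMP signalling, was the 1 gene at an unadjusted *P* below 0.05 (10.6% of all tested genes). The count was 0 without rat 88, 64 or 67, 2 without rat 71 and 3 without rat 69. Id3 was also the 1 gene of the 14 whose groups lay apart in CPM (14.3% of all tested genes). Its levels of 48.3, 40.7 and 76.2 CPM in AL and 22.3, 37.3 and 40.6 CPM in HD lay apart by a narrow margin (log2 fold change -0.71 ± 0.29, SE; adjusted *P* = 0.458).

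Of 34 further pan-endothelial genes, 9 had a higher and 25 a lower mean in HD (48.7% of all tested genes were lower), with a median log2 fold change of -0.34. Their summed level was 335 to 553 TPM in AL and 253 to 533 TPM in HD. Of these, 1 was at an unadjusted *P* below 0.05 with a higher level and 2 with a lower one, against 10.6% of all tested genes in either direction. The 3 genes at that level became 8 without rat 61, 11 without rat 69, 1 without rat 88 or 67 and 2 without rat 71 or 64. The groups lay apart in CPM for 1 of the 34 genes, against 14.3% of all tested genes. Nostrin, a protein that traffics endothelial nitric oxide synthase, had 6.27, 6.04 and 10.5 CPM in AL and 15.5, 14.9 and 11.6 CPM in HD, so the groups lay apart and the high HD rats were not those of the 10 genes (log2 fold change 0.88 ± 0.26, SE; adjusted *P* = 0.404). Nos3, the synthase itself, overlapped at 10.2, 11.5 and 16.0 CPM in AL and 7.30, 10.8 and 18.0 CPM in HD. The genes with lower levels were Eltd1, an adhesion G protein-coupled receptor (log2 fold change -1.14 ± 0.39, SE; adjusted *P* = 0.406), and Clec14a, an endothelial C-type lectin (-0.63 ± 0.27, SE; adjusted *P* = 0.468). Fli1, an ETS factor of endothelium, was at 2.78, 7.37 and 6.29 CPM in AL and at 1.44, 2.0 and 3.96 CPM in HD, with rat 69 above rat 61. Vwf, the clotting protein stored by endothelium of larger vessels, was picked after its values were seen because its rats ranked differently, at 147, 53.4 and 49.0 CPM in AL and 84.5, 173 and 45.8 CPM in HD. Rats 61, 64 and 67, which were low for the 10 genes, were its high rats.

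Genes that mark single vascular beds did not share a direction, where 48.7% of all tested genes were lower in HD. Of 6 tested glomerular endothelial genes, 4 had a higher and 2 a lower mean in HD (median log2 fold change 0.16). The summed level of all 7 listed ones was 81.9 to 130 TPM in AL and 79.1 to 182 TPM in HD. Pi16, a peptidase inhibitor, was at 2.70, 3.77 and 1.92 CPM in AL and at 4.33, 7.20 and 12.7 CPM in HD, without overlap (log2 fold change 1.53 ± 0.44, SE; adjusted *P* = 0.398). Gata5, a transcription factor of glomerular endothelium, was higher in HD at an unadjusted edgeR *P* of 0.043. With Pi16 it made 2 of 6 below 0.05, both higher in HD (4.66% of all tested genes). The CPM of both also lay apart (7.25% of all tested genes in that direction). Of 12 arterial and Notch genes, 4 had a higher and 8 a lower mean, with opposite examples at the ends. Gja5, the connexin of arterial endothelium and renin cells, had 4.29, 2.94 and 2.51 CPM in AL and 6.11, 6.05 and 12.9 CPM in HD (log2 fold change 1.37 ± 0.38, SE; adjusted *P* = 0.398). Fbln5, an elastic fibre protein that is also made by smooth muscle and fibroblasts, had 36.4, 110 and 90.3 CPM in AL and 13.9, 22.9 and 35.6 CPM in HD (log2 fold change -1.69 ± 0.46, SE; adjusted *P* = 0.398). Both lay apart between the groups, 1 of the 12 in each direction (7.25% of all tested genes higher and 7.01% lower in HD). Of 8 venous and lymphatic genes, 2 had a higher and 6 a lower mean. The CPM of 1 of the 8 lay apart, with lower levels in HD (7.01% of all tested genes). Vcam1, a leukocyte adhesion molecule of activated and venous endothelium and of some tubule cells, lay apart at 12.3, 25.4 and 27.1 CPM in AL and 6.03, 7.59 and 11.7 CPM in HD (log2 fold change -1.34 ± 0.36, SE; adjusted *P* = 0.398).

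Markers of other cells of the kidney were measured in the same rats. The 16 podocyte genes, which mark the other cell layer of the glomerular filter, had a higher mean in HD in 13 cases and a lower one in 3 (48.7% of all tested genes were lower). Their summed level was 53.3 to 159 TPM in AL and 157 to 320 TPM in HD. With edgeR 5 were higher at an unadjusted *P* below 0.05 (4.66% of all tested genes), and 4 to 5 reached that level with each rat left out. The CPM of 6 lay apart with higher levels in HD (7.25%), and DESeq2 called 4 at the adjusted threshold (1.58%). Nephrin (Nphs1) was at 9.77, 13.9 and 10.8 CPM in AL and at 42.0, 59.1 and 74.8 CPM in HD, with an adjusted *P* of 0.098. The 14 smooth muscle and mesangial genes had a summed level of 101 to 253 TPM in AL and 98.2 to 396 TPM in HD, with 8 higher and 6 lower. Leukocyte genes had a lower mean in HD in 9 of 9 tested cases (48.7% of all tested genes), and 5 of them had an unadjusted *P* below 0.05 (5.94% of all tested genes in that direction). The number at that level was 2 without rat 71 and 3 without rat 64 or 67. The summed level of all 10 listed leukocyte genes was 383 to 1031 TPM in AL and 209 to 493 TPM in HD. Lyz2, lysozyme of macrophages and neutrophils, was at 92.2, 341 and 227 CPM in AL and at 26.7, 37.5 and 68.8 CPM in HD. Platelets also carry Pecam1, and their gene Pf4 was at 2.38, 5.71 and 4.90 CPM in AL and at 1.95, 0.999 and 1.79 CPM in HD.

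The vasa recta lie in the medulla, so markers of the medulla are set beside Plvap. The 9 collecting duct and inner medulla genes had a summed level of 1452 to 2011 TPM in AL and 1337 to 1768 TPM in HD, with 3 higher and 6 lower. At an unadjusted *P* below 0.05 there were 2 with higher levels (4.66% of all tested genes) and 5 with lower levels (5.94%), and these 7 became 2 without rat 88 and 4 without rat 71, 64 or 67. Slc14a2, the urea transporter of the inner medullary collecting duct, was picked after its values were seen. It had 40.4, 145 and 122 CPM in AL and 20.3, 26.6 and 67.1 CPM in HD, with the rats in the same order as for Plvap (log2 fold change -1.42 ± 0.57, SE; adjusted *P* = 0.453). Slc14a2 does not stand for the whole list. Its 3 genes with a higher mean in HD were Hsd11b2, Scnn1b and Scnn1g, with log2 fold changes of 0.64, 0.53 and 0.13. Among the 6 with a lower mean, Slc6a12 was at -1.11, Avpr2 at -0.54, Fxyd4 at -0.43, Aqp3 at -0.41 and Aqp2 at -0.05. The part of these other cells and of the kidney zone in the levels of Plvap and the other endothelial genes was not tested. Of the other lists, 8 of 10 proximal tubule genes, 0 of 7 thick ascending limb genes, 2 of 4 platelet and red cell genes and 5 of 5 muscle and fat genes had a higher mean in HD. Of all tested genes 48.7% were lower. Of the 10 proximal tubule genes, 4 were higher in HD at an unadjusted edgeR *P* below 0.05 (4.66% of all tested genes). That number was 2 to 5 with each rat left out. The CPM of 4 lay apart with higher levels in HD (7.25%), and DESeq2 called 2 at the adjusted threshold (1.58%). Over all 15 lists, with 172 distinct tested genes, edgeR gave 0 genes at an adjusted *P* of at most 0.05 and 38 at an unadjusted *P* below 0.05 (0.0% and 10.6% of all tested genes). DESeq2 gave 13 at the adjusted threshold (1.58% of all genes), among which Fbln5 and Vcam1 were the only ones from the endothelial and signalling lists.

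**Figure D4:**
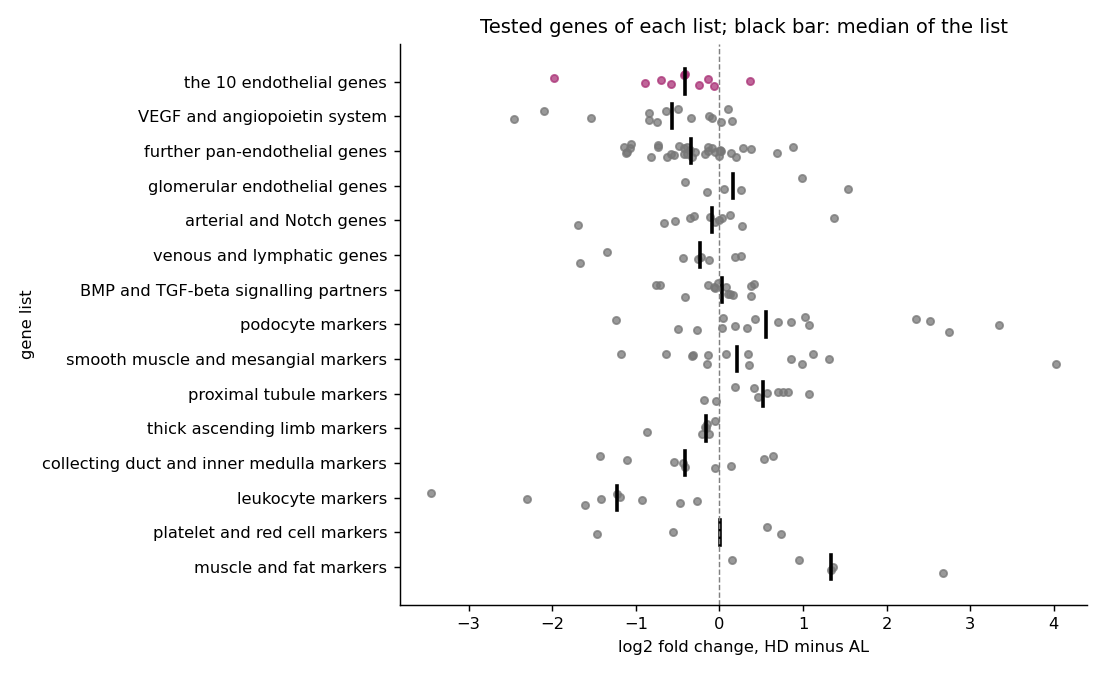
Log2 fold change, HD minus AL, of every tested gene in each gene list, with the 10 endothelial genes in purple and a black bar at each list's median. The median is -0.42 for the 10 genes, 0.56 for podocyte markers, 0.16 for glomerular endothelial genes and -1.22 for leukocyte markers.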

How the data were processed

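Kidney RNA was poly(A)-selected and sequenced as single reads, with a library of its own for each rat. Per the submitters' processing notes, the authors used RSEM 1.1.15 and rn5. The authors deposited an estimated count (expected count), not normalized, and TPM, scaled to transcript length and library size. The posterior mean count was used only as an alternative, and the FPKM was not used here. RNA-seq read filters are not given in the sources used here, and strand was not marked by the kit.

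Estimated counts were summed per gene and rounded. A gene was tested where some rat reached 30 counts; the test was done with edgeR 4.0.16 (R 4.3.3; quasi-likelihood test, TMM), with diet as the only factor, and *P* values were adjusted by Benjamini-Hochberg over 11553 genes at a threshold of 0.05. The SE is the absolute log2 fold change divided by the root of F. The common biological coefficient of variation was 0.242. DESeq2 1.42.0, named in the study's methods, was an alternative. Within-rat log2 ratios used a pseudocount of 0.5 counts and an exact two-sided permutation test (scipy 1.17.1), and the ratios are printed as counts divided by counts. Depth limits a value to counting error only where counts are few: the lowest count behind a value of the 10 genes was 51. Scripts were tested on simulated data.

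The genes and lists were chosen with earlier results of these data known. Named genes are the 10, up to 3 genes per direction with the smallest *P* from each endothelial or signalling list, Vegfa, Angpt1, Angpt2 and Nos3, at most 2 per marker list, and genes most like the 3 of the 10 with the smallest *P*. All 9 collecting duct and inner medulla genes are named as well. Others are said to be picked after their values were seen. Alternatives were library size without TMM, RLE normalization, robust edgeR, other count filters, the posterior mean count, DESeq2, other pseudocounts and leaving out each rat.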

Additional observations from a re-analysis of the deposited data

How the results depend on the processing

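With edgeR 0 of the 10 endothelial genes passed the adjusted threshold in every alternative. Over all tested genes, 0 were called in the reported fit, 182 with DESeq2, 2 with no count filter and 0 to 4 with each rat left out. At an unadjusted *P* below 0.05 there were 1224 tested genes, and 605 to 1793 with each rat left out. Of the 10 genes 1 reached that level, 2 did so with DESeq2, and 0 to 5 with each rat left out: 0 without rat 67, 2 without rat 61 and 5 without rat 69. The median log2 fold change of the 10 genes ran from -0.94 (without rat 69) to -0.14, and 7 to 10 of them were lower in HD.

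The sign reversed for Ehd3 without rat 71 (0.11), rat 88 (0.18), rat 64 (0.19) or rat 67 (0.17), for Cdh5 without rat 64 (0.21) and for Kdr without rat 69 (-0.26). With each rat left out, Ehd3 ranged from -0.72 to 0.19, Cdh5 from -0.66 to 0.21 and Kdr from -0.26 to 0.68. Plvap, Tek, Pecam1, Tie1, Eng, Emcn and Flt1 kept their negative sign in all alternatives. Of the ratios to Pecam1 and of Kdr to Flt1 that were apart, Plvap to Pecam1 stayed negative and the other 4 stayed positive. With each rat left out, the log2 difference was -1.48 to -1.06 for Plvap to Pecam1, 0.99 to 1.32 for Kdr to Pecam1, 0.58 to 0.81 for Ehd3 to Pecam1, 0.24 to 0.49 for Emcn to Pecam1 and 0.29 to 0.61 for Kdr to Flt1. No paired analysis was possible because each rat has its own identity number and no number is shared between the groups. With 3 rats per group, spread between rats sets the precision, and the exact test cannot go below 0.1.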

Other observations

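The tested genes whose log2 CPM followed an endothelial gene most closely over the 6 rats were looked up for the 3 endothelial genes with the smallest *P*. For Plvap they were Gng2, Rcn3 and Dse, each with a Pearson correlation of 0.995. For Tek they were Socs2 (0.998), Ly6e (0.996) and Robo4 (0.995), the last an endothelial guidance receptor. For Pecam1 they were Nsg1 (0.996), Chsy1 (0.996) and Slco1a6 (0.994). These are the highest of 11552 values for each gene from only 6 rats that share the same high and low libraries, so they were given no test.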
